A study of Homo sapiens with 12 samples.

Results

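The miR-26 family was followed in Huh7 cells, an established human hepatocellular carcinoma line, through 3 mature miRNAs: hsa-miR-26a-5p, hsa-miR-26b-5p and hsa-miR-26b-3p, written below without the species prefix. They are 3 of the 2652 mature miRNAs with an entry in each deposited table, and they were taken by name. The family was picked because miR-26a-5p combined a very high read level with very few T>C conversions after labelling, so its level and conversion rate in the Control and DMSO libraries are given as a description without a test. That choice was not made on PlaB against DMSO, although earlier results of these data were known. PlaB was compared with DMSO by a test, except for the conversion rate of miR-26a-5p. The DMSO read level of miR-26a-5p was part of the choice, so tests on its reads are not independent of it.

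SLAMseq marks newly made RNA with 4-thiouridine (4SU), a uridine analogue that, after alkylation, is read as C in place of T in the sequenced cDNA. Control cells received DMSO and no 4SU. DMSO cells received DMSO together with 4SU at 500 µM for 4 h. PlaB cells received 4SU in the same way together with PlaB (pladienolide B), which blocks splicing by binding SF3B1 in the spliceosome, at a concentration given as 1 µM in the methods of the study and as 500 µM in the sample labels. Each condition had 4 libraries from 4 independent experiments. In the methods, libraries DMSO A and DMSO B combine an original, a re-prepared and a re-amplified run. The labels number the replicates 1 to 4, and DMSO A and B are taken here as DMSO replicates 1 and 2. All libraries come from a single cell line, so the p-values measure the spread between experiments in that line. These are bulk libraries, in which fewer cells and less RNA per cell cannot be told apart.

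The libraries held between 1522210 and 3880241 reads on miRNAs, with the deepest 2 in the DMSO condition. Of 5 hepatocyte miRNAs, all were over 100 CPM (a read count relative to the total of miRNA reads in its library) in every library, led by miR-122-5p at 55353 to 105331 CPM. Of 12 markers of other cell types, 7 were under 10 CPM in every library, and the 12 together summed to between 502 and 789 CPM, most of it the endothelial miR-126-3p at 385 to 632 CPM. The miRNAs of the Initial miRNA Dataset, which are over 100 CPM in every library and listed in MirGeneDB, had a mean conversion rate of 0.0212% to 0.0257% per Control library, 0.332% to 0.364% per DMSO library and 0.170% to 0.187% per PlaB library.

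miRNAs guide Argonaute proteins to messenger RNAs by pairing of their seed, bases 2 to 8. miR-26 is abundant in liver, represses targets such as the histone methyltransferase EZH2, and is known for lower levels in hepatocellular carcinoma than in normal liver. Its hairpins lie in introns of the CTDSP family of small C-terminal domain phosphatase genes, are cut from the host transcript by Drosha and then diced into a 5p and a 3p arm, of which the 5p arm is the one mainly retained. On GRCh38, MIR26A1 is at chr3:37969404-37969480 on the plus strand in an intron of CTDSPL. MIR26A2 is at chr12:57824609-57824692 on the minus strand in an intron of CTDSP2. MIR26B is at chr2:218402646-218402722 on the plus strand in an intron of CTDSP1. Each hairpin is on the strand of its host gene and overlaps 0 annotated exons of it.

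The mature sequences carry what the family members share and where they differ. They are given 5′ to 3′ from RefSeq (GRCh38.p14), with the seed in capitals, and the opposite arms of the miR-26a hairpins are added because they report on those hairpins separately.
miR-26a-5p: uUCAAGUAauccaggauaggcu
miR-26b-5p: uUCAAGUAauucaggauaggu
miR-26b-3p: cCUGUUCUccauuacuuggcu
miR-26a-1-3p: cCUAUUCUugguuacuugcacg
miR-26a-2-3p: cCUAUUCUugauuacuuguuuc
Both 5p arms share one seed, and both miR-26a 3p arms share another that differs from the seed of miR-26b-3p. miR-26a-5p is encoded identically at chr3:37969413-37969434 on the plus strand and at chr12:57824658-57824679 on the minus strand, while miR-26b-5p is at chr2:218402657-218402677 and miR-26b-3p at chr2:218402692-218402712. The seed of the 5p arms occurs in 4 mature miRNAs of the RefSeq table. The other ones are miR-1297, with 0 reads in the 12 libraries, and miR-4465, with 36 reads over the 12 libraries and at most 13 in any of them.

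The 5p arms of miR-26a and miR-26b differ at 2 positions, counted from 1 at the 5′ end, and by 1 base in length. The differing bases and the extra base are in capitals here, because both differences are of the kind that the assay counts.
miR-26a-5p: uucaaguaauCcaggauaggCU
miR-26b-5p: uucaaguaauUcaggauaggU
From miR-26b-5p to miR-26a-5p the substitutions are U11C and U21C. The first 10 bases are identical, and after U11C the first 20 are. miR-26a-5p has 6 U bases, miR-26b-5p has 7 and miR-26b-3p has 9, against a median of 6 U and a range of 2 to 16 over the 127 Initial miRNA Dataset entries with a sequence in the table. The deposited tables list 12 T and a length of 44 for miR-26a-5p, the sum of its 2 loci, and 7 T and 21 bases for miR-26b-5p.

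miR-26a-5p was among the most abundant miRNAs of these cells. Its level in Control replicates 1 to 4 was 47376, 37750, 48185 and 55284 CPM. In DMSO replicates 1 to 4 it was 57853, 44194, 47583 and 57907 CPM, and in PlaB replicates 1 to 4 it was 49098, 40350, 53772 and 59128 CPM. The conditions overlapped, and replicate 2 was the lowest library in each of them. The mean of the 4 libraries was 47149 ± 7203 CPM (SD) in Control, 51884 ± 7060 CPM in DMSO and 50587 ± 7961 CPM in PlaB, which ranked miR-26a-5p at place 5 of 2652 in every condition. Between 98.4% and 99.2% of its reads per library mapped to more than 1 place, so the tables do not tell which of the hairpins on chromosomes 3 and 12 they came from.

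miR-26b-5p, with the same seed, was the less abundant paralogue. Its level was 3152, 3754, 4137 and 4236 CPM in Control replicates 1 to 4. It was 4272, 4643, 4912 and 4584 CPM in DMSO and 3498, 4200, 4954 and 4182 CPM in PlaB. The lowest DMSO library was just above the highest Control library, and the PlaB libraries spanned both. The means of 3820 ± 492, 4603 ± 262 and 4208 ± 595 CPM (SD, n = 4) put miR-26b-5p at places 37, 34 and 36 of 2652. At most 0.0887% of its reads in any library mapped to more than 1 place.

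The 3p arms, the strands that are mostly discarded, were at far lower levels. miR-26b-3p had 25.8, 19.6, 25.4 and 46.9 CPM in Control replicates 1 to 4. It had 14.9, 14.0, 8.87 and 13.7 CPM in DMSO and 16.4, 19.2, 16.3 and 13.6 CPM in PlaB. Every DMSO library was below every Control library, as for 48 of the 533 miRNAs with enough reads (9.01%), and Control replicate 4 stood highest. The highest PlaB library, at 19.2 CPM, was just below the lowest Control library, at 19.6 CPM, and how many other miRNAs have this order was not counted. miR-26b-3p had 248 reads over the 4 Control, 149 over the 4 DMSO and 115 over the 4 PlaB libraries.

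miR-26a-2-3p, the opposite arm from chromosome 12, had 48.0, 35.1, 43.6 and 33.9 CPM in Control, 13.1, 11.6, 12.3 and 6.60 CPM in DMSO and 11.2, 10.1, 7.53 and 6.80 CPM in PlaB. miR-26a-1-3p, the opposite arm from chromosome 3, had 22.2, 9.19, 13.2 and 7.96 CPM in Control, 2.32, 1.22, 0 and 0 CPM in DMSO and 0.657, 2.53, 0 and 4.19 CPM in PlaB. The 3p arms of both miR-26a hairpins were thus detected in the Control cells. For miR-26a-2-3p every library with 4SU was below every Control library, an order that was not counted over the other miRNAs for PlaB. All 4 DMSO libraries were below all 4 Control libraries for 48 of the 533 miRNAs with enough reads (9.01%). miR-26a-1-3p had enough reads in the Control libraries alone, so no order of the conditions is read from it. The reads behind miR-26a-1-3p were 102, 13 and 14 over the 4 libraries of Control, DMSO and PlaB, so its levels with 4SU rest on a handful of reads.

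**Figure D1:**
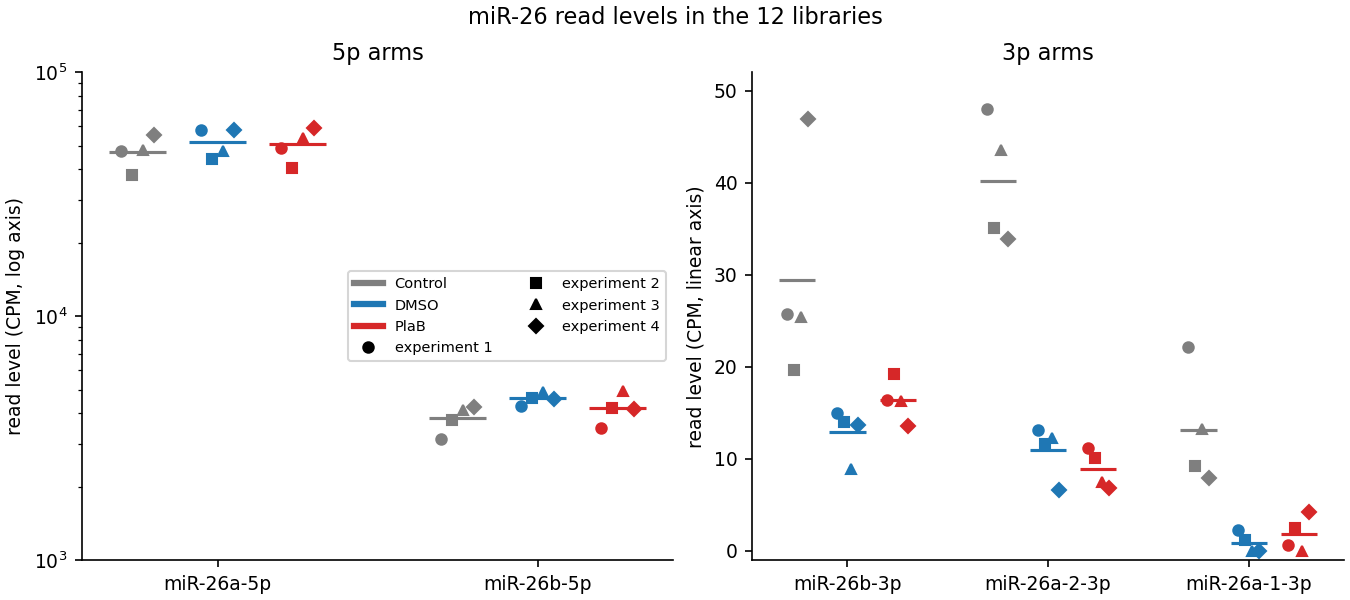
Read level in CPM of the 5p arms (left, log axis) and of the 3p arms (right, linear axis) in each of the 12 libraries, with colours for the condition, symbols for the experiment and a line at the mean of 4 libraries. The 5p arms overlap between conditions or nearly touch. For miR-26b-3p and miR-26a-2-3p the grey Control points lie above all DMSO and PlaB points, and miR-26a-1-3p has few reads with 4SU.

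Set side by side, Control and DMSO libraries differed little in the 5p arms and more in the 3p arms. As fitted by edgeR over the 533 miRNAs with enough reads, which include all 3 members and miR-26a-2-3p, the log2 change of the read level from Control to DMSO was 0.15 (SE 0.141) for miR-26a-5p and 0.29 (SE 0.137) for miR-26b-5p. It was -1.17 (SE 0.317) for miR-26b-3p and -1.85 (SE 0.278) for miR-26a-2-3p, with a median of 0.04 over the 533. miR-26a-1-3p is also among the 533, but it had enough reads in the Control libraries alone, so no fitted change is given for it. All 4 DMSO libraries were below all 4 Control libraries for miR-26b-3p and miR-26a-2-3p, as for 48 of the 533 miRNAs (9.01%). All 4 were above for miR-26b-5p and for 23 of the 533 (4.32%). As the family was chosen on these conditions, the counts describe it and nothing is read from them.

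The balance of the arms within a library does not depend on scaling to the library total. Per read of miR-26b-3p there were 122, 191, 163 and 90.3 reads of miR-26b-5p in Control replicates 1 to 4, 286, 331, 554 and 334 in DMSO and 213, 219, 304 and 307 in PlaB. Every DMSO and PlaB library was above every Control library, which is given as a description because the family was chosen on Control and DMSO. How often other pairs of arms have this order was not counted, so nothing is read from it. The DMSO and PlaB libraries overlapped. On the log2 scale the mean ratio was 8.00 ± 0.290 in PlaB and 8.51 ± 0.418 in DMSO (SD, n = 4), a difference of -0.50 that did not pass the exact two-sided permutation test (p = 0.0857, where 0.0286 is the smallest that 4 against 4 libraries allow). Within experiments 1 to 4 the difference was -0.42, -0.60, -0.87 and -0.12, lower in PlaB in 4 of 4, and sign flips of the pairs gave an exact p of 0.125, the smallest that 4 pairs allow.

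The ratio of the paralogues was higher in the same experiments in each condition. Per read of miR-26b-5p there were 15.0, 10.1, 11.6 and 13.1 reads of miR-26a-5p in Control replicates 1 to 4, 13.5, 9.52, 9.69 and 12.6 in DMSO and 14.0, 9.61, 10.9 and 14.1 in PlaB. Experiments 1 and 4 had the higher ratios and experiments 2 and 3 the lower. The log2 ratio was 3.58 ± 0.277 in PlaB and 3.49 ± 0.261 in DMSO (SD, n = 4), and the difference of 0.10 did not pass the exact two-sided permutation test (p = 0.543). Within experiments 1 to 4 it was 0.05, 0.01, 0.16 and 0.16, higher in PlaB in 4 of 4, again with an exact paired p of 0.125. The DMSO reads of miR-26a-5p were part of the choice, so the tests of this ratio are not independent of it. miR-26a-5p made up 90.4% to 93.6% of the CPM of the 3 members and the 2 opposite arms in every library.

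**Figure D2:**
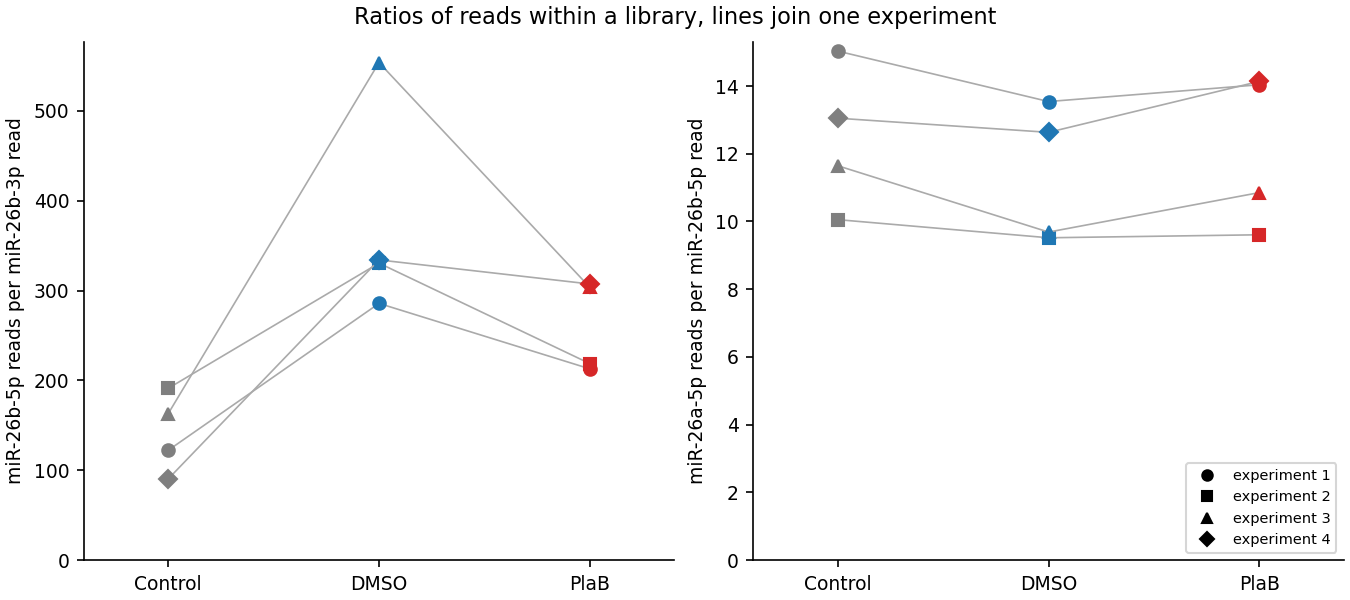
Reads of miR-26b-5p per read of miR-26b-3p (left) and reads of miR-26a-5p per read of miR-26b-5p (right) in each library, with grey lines joining the libraries of one experiment. The arm ratio is lowest in Control in all 4 experiments, and the paralogue ratio keeps experiments 1 and 4 above 2 and 3 in every condition.

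No member passed the test for a difference in read level between PlaB and DMSO. In edgeR's quasi-likelihood test of PlaB against DMSO with Benjamini-Hochberg adjustment over 533 miRNAs, the log2 fold change was -0.05 (SE 0.141, adjusted p = 0.993) for miR-26a-5p. In the same edgeR test it was -0.14 (SE 0.137, adjusted p = 0.946) for miR-26b-5p and 0.33 (SE 0.323, adjusted p = 0.946) for miR-26b-3p. The test for miR-26a-5p is not independent of the choice, which used its DMSO reads. The opposite arm miR-26a-2-3p did not pass either, with -0.31 (SE 0.293, adjusted p = 0.946 by edgeR). miR-26a-1-3p, with 13 reads in DMSO and 14 in PlaB, held too few reads in these conditions for the comparison to say anything. Of the 3 members 0 were called in this comparison, against 2 of 533 miRNAs (0.375%), and for 0 of the 3 were all 4 PlaB libraries below the DMSO libraries (2.81% of the 533) or above them (1.31%). In the edgeR test the 2 called were miR-92b-3p and miR-942-3p, both lower in PlaB. Over the 533 miRNAs the edgeR count at an unadjusted p under 0.05 was 30, and by DESeq2 6 miRNAs were called. With the experiment as a replicate block 6 were called, and with any 1 of the 12 libraries left out 0 or 1.

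The conversion rate, T>C conversions divided by covered T positions, was extremely low for miR-26a-5p. In Control replicates 1 to 4 its reads held 10, 38, 33 and 18 conversions, which gave rates of 0.00213%, 0.00709%, 0.00637% and 0.00230%. In DMSO replicates 1 to 4 they held 13, 2, 0 and 9 conversions and gave 0.000979%, 0.000234%, 0% and 0.00133%. In PlaB they held 2, 7, 0 and 2 conversions and gave 0.000451%, 0.00148%, 0% and 0.000299%. The 0 conversions counted in DMSO replicate 3 allow a rate of up to 0.000525% and those in PlaB replicate 3 up to 0.000592%. This limit, like each interval given, reflects counting error alone. The methods describe no removal of duplicate reads, so reads may be copies of one molecule. In DMSO replicate 3, however, 2 reads are listed as carrying a conversion, against 0 in PlaB replicate 3. The limit for DMSO replicate 3 may therefore be too low.

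All 4 DMSO libraries were thus below all 4 Control libraries for miR-26a-5p. That held for 1 miRNA of the Initial miRNA Dataset (0.699%), miR-26a-5p itself, while for 101 of them (70.6%) all 4 DMSO libraries were above. As the family was chosen for the few conversions of miR-26a-5p after labelling, these counts describe it and nothing is read from them. Pooled over 4 libraries, miR-26a-5p had 99 conversions at 2305853 covered T in Control, 24 at 3429721 in DMSO and 11 at 2091878 in PlaB, and the tables list 106, 30 and 16 of its reads as carrying a conversion. Such reads outnumber the conversions in each condition, so the rates may leave some conversions out, and the reason was not tested. The pooled rates were 0.00429% (95% Wilson interval 0.00353% to 0.00523%), 0.000700% (0.000470% to 0.00104%) and 0.000526% (0.000294% to 0.000942%). The mean of 4 libraries was 0.00447% ± 0.00263 (SD) in Control, 0.000637% ± 0.000625 in DMSO and 0.000558% ± 0.000643 in PlaB. At 0.187%, the median DMSO rate of the Initial miRNA Dataset, the same covered T positions would hold 6420 conversions.

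In the Initial miRNA Dataset 4 miRNAs had a lower mean rate than miR-26a-5p in DMSO, and these were miR-574-3p, miR-140-3p, miR-320b and miR-30b-5p, all listed with 0 conversions in all 12 libraries. The mean DMSO rate was below the mean Control rate for miR-26a-5p and for the less abundant let-7e-5p, miR-378a-3p and miR-450b-5p, which had between 4 and 8 conversions over the 4 DMSO libraries. In Control, 28 miRNAs were lower than miR-26a-5p and 114 higher. Of the 25 miRNAs with the most reads, miR-26a-5p had the lowest DMSO rate, followed by miR-186-5p at 0.0119%, miR-30e-5p at 0.0203% and miR-191-5p at 0.0706%. The fitted log2 change of the conversions from Control to DMSO was -2.72 (SE 0.725) for miR-26a-5p, against a median of 3.16 over the Initial miRNA Dataset.

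miR-26b-5p, with the same seed and nearly the same body, had a far higher conversion rate, and it had it without 4SU as well. In Control replicates 1 to 4 its reads held 54, 50, 85 and 43 conversions and gave 0.147%, 0.0797%, 0.162% and 0.0610%. In DMSO they held 181, 165, 139 and 131 and gave 0.157%, 0.156%, 0.200% and 0.208%. In PlaB they held 52, 69, 66 and 70 and gave 0.140%, 0.119%, 0.120% and 0.126%. The Control libraries spread widely: replicate 3 lay above DMSO replicates 1 and 2, while replicates 2 and 4 lay below all libraries with 4SU. The mean of 4 libraries was 0.113% ± 0.0498 (SD) in Control, 0.180% ± 0.0280 in DMSO and 0.126% ± 0.00977 in PlaB.

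In Control only 2 miRNAs of the Initial miRNA Dataset had a higher mean rate than miR-26b-5p, although in DMSO it sat near the middle, with 73 higher and 69 lower. Its lowest library, at 0.0610%, was above the highest library of miR-26a-5p, at 0.00709%. The DMSO rate of miR-26b-5p was above the Control rate within each of the 4 experiments, by 0.00937, 0.0759, 0.0375 and 0.147 percentage points. The fitted log2 change from Control to DMSO was 0.69 (SE 0.277), also below the median of 3.16. In Control libraries the 232 conversions of miR-26b-5p lay in 232 reads, in DMSO the 616 conversions lay in 605 reads and in PlaB the 257 lay in 249.

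At position 11 a C is both the miR-26a-5p base and what a converted T of miR-26b-5p would be read as. Per 100 reads of miR-26a-5p there were 0.0683, 0.0553, 0.0974 and 0.0326 reads of miR-26b-5p with a T>C conversion in Control replicates 1 to 4. There were 0.0797, 0.111, 0.143 and 0.112 in DMSO and 0.0656, 0.0864, 0.0770 and 0.0575 in PlaB. The Control libraries overlapped with both the DMSO and the PlaB libraries in this quantity. The tables do not give conversions by position, and the part of miR-26a-5p reads in the conversions of miR-26b-5p was not tested.

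Other miRNAs with such a partner had lower Control rates. Of the 127 miRNAs with a sequence, 5 match another of the Initial miRNA Dataset over their first 18 bases but for 1 T that is C in the partner. miR-26b-5p had a Control rate of 0.113% and 11.8 partner reads per own read. miR-19a-3p (U11C to miR-19b-3p) had 0.00757% with 2.00 partner reads per own read, miR-502-3p (U9C to miR-501-3p) had 0.0166% with 0.794, miR-30e-5p (U13C to miR-30a-5p) had 0.00458% with 0.0272, and miR-92a-3p (U10C to miR-92b-3p) had 0.0257% with 0.00454. The other 4 had Control rates between 0.00458% and 0.0257%, against a median Control rate of 0.0185% over the miRNAs without such a partner. miR-26b-5p was the highest of the 5 in both quantities, while miR-19a-3p, next in partner reads, lay below that median. Whether partner reads bear on the Control rate was not tested.

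For the 3p arms the conversions are too few for a rate per library to carry weight. miR-26b-3p had 1 conversion at 2230 covered T in Control, 3 at 1341 in DMSO and 5 at 1035 in PlaB, of which 4 were in PlaB replicate 3. miR-26a-2-3p had 0, 7 and 2 conversions in Control, DMSO and PlaB, and its 7 were all in DMSO replicate 2. miR-26a-1-3p had 0 in every library. None of these arms reaches the Initial miRNA Dataset and none was tested for conversions.

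PlaB against DMSO asked whether blocking the spliceosome changes the labelling of miRNAs that come from introns. For miR-26a-5p the comparison cannot answer it, because its low DMSO rate was part of the choice. The DMSO mean of 0.000637% lay below its own Control mean of 0.00447% and below 0.0178%, the median Control rate of the Initial miRNA Dataset. Its conversions therefore showed no labelling above the unlabelled level, and whether it was labelled cannot be told from them. The values are given without a test, a PlaB minus DMSO difference in mean rate of -7.88e-05 percentage points and a log2 fold change of conversions per covered T of -0.28 (SE 0.838). Of the Initial miRNA Dataset, 69 miRNAs were called lower in PlaB (48.3%) by edgeR's quasi-likelihood test with Benjamini-Hochberg adjustment, with a median log2 fold change of -1.23 over the whole set. With 24 conversions in DMSO and 11 in PlaB the difference for miR-26a-5p has a wide error, and its sign turned when DMSO replicate 1 (0.04), DMSO replicate 4 (0.20) or PlaB replicate 3 (0.11) was left out.

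For miR-26b-5p the difference between the PlaB and the DMSO rate was negative in each of the 4 experiments, at -0.0164, -0.0366, -0.0802 and -0.0828 percentage points. All 4 PlaB libraries were below all 4 DMSO libraries, as they were for 66 miRNAs of the Initial miRNA Dataset (46.2%). The mean difference was -0.0540 percentage points, with p = 0.0286 in the exact two-sided permutation test, the smallest that test can give. With the experiment as a replicate block, sign flips of the 4 pairs gave an exact p of 0.125, also the smallest possible. Without DMSO replicates 1 and 2, which are taken to combine several runs, the difference was -0.0781 percentage points. In edgeR's quasi-likelihood test with Benjamini-Hochberg adjustment over the Initial miRNA Dataset the log2 fold change of -0.51 (SE 0.275) did not pass, with an adjusted p of 0.119. The mean Control rate of 0.113% lay below the mean PlaB rate of 0.126%, and their libraries overlapped.

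**Figure D3:**
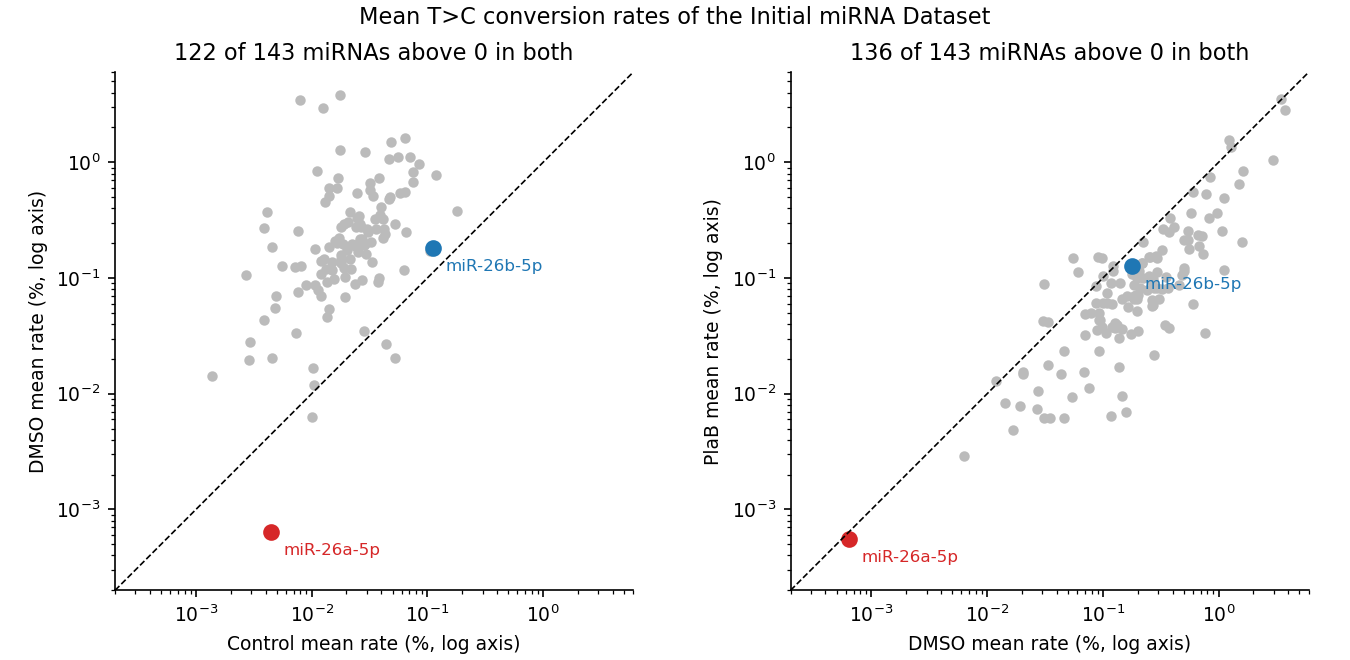
Mean T>C conversion rate of the Initial miRNA Dataset in DMSO against Control (left) and in PlaB against DMSO (right), both axes log and in percent, with a dashed line of equal rates and grey points for the other miRNAs. The 122 and 136 miRNAs above 0 in both conditions are drawn; miR-26a-5p lies at the lower end of both panels and below the dashed line on the left, and miR-26b-5p lies above the line on the left and below it on the right.

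The read profiles of the paralogues over the 12 libraries were each most like those of other miRNAs. By Pearson correlation of log2(CPM + 1), given as a description over 12 libraries that share experiments and scaling, the miRNAs of the Initial miRNA Dataset most like miR-26a-5p were miR-652-3p (0.904), miR-122-5p (0.884) and miR-130b-3p (0.848). Those most like miR-26b-5p were miR-19b-3p (0.887), miR-122-3p (0.849) and miR-374b-5p (0.842). The correlation between miR-26a-5p and miR-26b-5p was 0.268, which made miR-26b-5p number 54 of 142 in the order for miR-26a-5p and miR-26a-5p number 33 of 142 in the order for miR-26b-5p.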

How the data were processed

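The data were 12 deposited SLAMseq tables from Huh7 cells. Per the methods, the authors trimmed adapters with Trim Galore, clipped 4 bases at each read end, dropped reads over 30 bases, mapped to GRCh38 and counted on miRBase v22 mature miRNAs with SLAM-DUNK in nf-core slamseq 1.0.0, without a mapping quality filter and with SNP masking. The deposited values are counts per mature miRNA (of reads, multi-mapping reads, covered T, T>C conversions and reads carrying them), CPM as scaled by the authors, and the conversion rate, which the authors give as a fraction and which is printed here in percent. The labels give each library's condition and replicate number.

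The members and lists were chosen with earlier results of these data known. Named are the members, their opposite arms, miRNAs with their seed, the 3 most alike profiles, the neighbours in the order of DMSO rates among the 25 most abundant miRNAs, and pairs that differ by a T and a C in the first 18 bases. The few other miRNAs named were picked once their values had been seen.

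Read counts (filterByExpr, TMM, 533 miRNAs) and T>C conversions (log covered T as offset, Initial miRNA Dataset) were tested with edgeR 4.0.16 in R 4.3.3, one fit of the 3 conditions, quasi-likelihood tests, Benjamini-Hochberg adjustment and a threshold of 0.05. Single values were compared by exact permutation (70 labelings of 4 against 4). Other steps used scipy 1.17.1, numpy 2.4.6, pandas 2.3.3 and matplotlib 3.10.9 in Python 3.11.15. The edgeR tests, and not the permutation tests, were tried on simulated data. Alternatives were RLE factors, DESeq2 1.42.0, other filters, reads with a conversion in place of conversions, the 8 libraries compared alone, a replicate block, and libraries left out. Where a library has 0 conversions, 3 conversions at its covered T are the limit, and intervals are 95% Wilson intervals.

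Per the methods each of 4 independent experiments held all 3 conditions, so replicate numbers pair the libraries. Deviations of log2 CPM from the condition mean correlated with a median r of 0.559 (Control and DMSO), 0.575 (Control and PlaB) and 0.570 (DMSO and PlaB) for the same number, at least 0.274 in any pair, and -0.173, -0.214 and -0.194 for different numbers. Sequences and loci are from RefSeq (GRCh38.p14) and GENCODE version 44, and 4 of 4 mature loci of the members were identical in the hg38 genome.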

Additional observations from a re-analysis of the deposited data

Results flagged for a closer look

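One value stood far from the other libraries of its condition. The conversion rate of miR-26b-3p was 0.0993% in Control replicate 4 and 0% in the other 3 Control libraries, where the distance to the nearest library is the whole range. It rests on 1 conversion. This was 1 of 24 sets of 4 libraries examined for the members. For continuous values, chance alone puts about 1 set in 20 past the limit used. With 0 in all libraries but 1 the distance always equals the range, so that share does not apply here.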

How the results depend on the processing

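The read levels of the members kept their side of the threshold under all 19 alternatives for miR-26a-5p and miR-26b-5p and all 18 for miR-26b-3p, which the Initial miRNA Dataset does not hold. The log2 fold change of miR-26a-5p reads between PlaB and DMSO lay from -0.10 to 0.04 with single libraries left out and was 0.01 (0.0055) with the 8 libraries alone, 0.04 (0.0439) without DMSO replicate 1, 0.03 (0.0297) without DMSO replicate 4 and 0.04 (0.0442) without PlaB replicate 2. The count of miRNAs called in that comparison, 2, was 0 with RLE factors, 6 with DESeq2, 1 over the Initial miRNA Dataset, 5 without a filter, 0 with the 8 libraries alone, 0 without DMSO replicates 1 and 2, and 0 to 1 with single libraries left out. For conversions 69 of the Initial miRNA Dataset were called, 40 of 60 over 1000 CPM and 56 to 70 with single libraries left out.

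The replicate block, which pairs libraries by experiment, gave 6 calls for reads. For miR-26b-5p the mean rate difference of -0.0540 percentage points had an exact p of 0.125 under it, and the edgeR block fit gave adjusted p = 0.115 (adjusted p 0.0595 to 0.247 over the 19 alternatives, none passing). It changed no other call on the members.

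The rate difference of miR-26b-5p ranged from -0.0622 to -0.0446 percentage points with single libraries left out, with an exact p of 0.0571, the smallest that 3 against 4 allow, and was -0.0781 (exact p = 0.133) without DMSO replicates 1 and 2. For miR-26a-5p it ranged from -0.000387 to 0.000154 and was positive without PlaB replicate 3 (0.000107), PlaB replicate 4 (7.54e-06), DMSO replicate 1 (3.52e-05) and DMSO replicate 4 (0.000154). Its log2 fold change of conversions ranged from -1.36 to 0.20 and was 0.04 (0.0392), 0.20 (0.196) and 0.11 (0.112) without DMSO replicate 1, DMSO replicate 4 and PlaB replicate 3. The DMSO values of miR-26a-5p were part of its choice, so these values bear on no call, and the cause was not tested.

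A ratio added after seeing the data, mean PlaB minus mean Control over mean DMSO minus mean Control, was 0.200 for miR-26b-5p and 0.317, 0.0456, 0.358 and -0.0728 without Control replicates 1 to 4. Depth limits the 3p arms, which had 512 reads of miR-26b-3p over the 12 libraries.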
